A study of Mus musculus with 12 samples.

Results

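The response of mouse shin muscle to intermittent fasting was measured over all 12 of the 12 libraries of the series, 6 from fasted and 6 from fed animals, with the vector carried by the muscle taken into account. The members are the samples: every library labelled as alternate day fasting (ADF) was set against every library labelled as fed ad libitum. All libraries came from tibialis anterior, a muscle of the lower leg made mostly of fast fibres, of male C57BL/6 mice aged 13 weeks. Each group held 3 libraries. The fed GFP and ADF GFP muscles carried a vector that expresses GFP and that the labels call empty, and the fed Crtc2 and ADF Crtc2 muscles carried a vector for Crtc2, which binds CREB and boosts its activity. The ADF groups went through 3 rounds of fasting, so every muscle in either arm had been transduced and none was untouched. The labels do not say which promoter drives the vectors, how many fibres took them up, at which hour the muscles were taken, or whether the last day before collection was a fasting or a feeding day. They also do not say whether the libraries of a group, or the GFP and Crtc2 muscles, came from separate animals. The p-values therefore rest on library-to-library spread, which may be technical.

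When food is withheld, skeletal muscle turns from glucose to fatty acids. Pyruvate dehydrogenase, the gate from glycolysis to the TCA cycle, is shut by the kinases of the Pdk family, lipid droplets are opened by lipases, and the fatty acids are burnt by beta-oxidation. Falling insulin and rising glucocorticoids release FoxO transcription factors, which switch on ubiquitin ligases and autophagy genes that break down muscle protein, while cAMP acting through CREB and its CRTC coactivators is a further fasting signal.

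Total counts ran from 24232450 to 34610417 per library, and 14313 to 17226 genes had a count of at least 1. Among counts from 2 to 21, between 68.9 and 74.7% per library were even, so both mates of a fragment may have been counted. Totals and low counts may then stand for fewer fragments than they show. Among genes of 1 to 3 CPM, the share at 0 ran from 4.83% (Fed Crtc2 replicate 2) to 35.9% (Fed Crtc2 replicate 1). It was 32.7% in Fed GFP replicate 1 and 30.1% in ADF Crtc2 replicate 2. A value of 0 given below therefore need not mean that a gene was silent. The cause of this spread was not tested. Totals were larger in the ADF libraries (exact permutation of diet within each vector, two-sided p = 0.035, adjusted over the 8 library measures compared p = 0.0933). The 8 muscle fibre markers summed to 126438 to 188026 CPM (reads of a gene relative to the library total, scaled by the trimmed mean of M values) in ADF and 106898 to 182214 CPM in fed muscle. Crtc2 itself checked the vector labels. It lay between 16.1 and 29.2 CPM in the 6 GFP libraries and between 31.4 and 77.9 CPM in the 6 Crtc2 libraries, with no overlap, and its change with diet did not pass (-0.53 on the log2 scale, SE 0.20, adjusted p = 0.077). A set of genes that collect ribosomal RNA reads held 0.147 to 0.296% of the counts in ADF and 0.0599 to 0.0888% in fed libraries (exact permutation p = 0.005, the smallest that the 400 arrangements allow, and 0.04 after adjustment). The protocols name an NEBNext Ultra II directional and a TruSeq Stranded mRNA preparation without assigning them to libraries, and a preparation difference that followed diet cannot be told apart from fasting.

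Of 16007 genes tested, 2729 passed an adjusted p of 0.05 in edgeR's quasi-likelihood test, which is 17%. The 1453 that were higher under ADF make 9.08% of the genes tested and the 1276 that were lower make 7.97%. Scaled to library totals alone, the split between higher and lower turned, from 53.2% higher to 33.9% higher, and the median of all genes moved by -0.19, so the directions of small changes are relative to the scaling used. The median log2 fold change of all genes was -0.09, the level against which the gene groups below are read. Of the genes that passed, 1435 differed by at least 2-fold and 1294, or 47.4%, by less, with a smallest passing change of 0.32. Values of the 6 ADF and the 6 fed libraries did not overlap for 1553 genes, or 9.7% of those tested. Of these, 1424 passed the test, which is 52.2% of all genes that passed. Counts of passing genes without overlap in the gene groups below are read against that share. Of the genes tested, 5.63% were apart with ADF higher and 4.07% with ADF lower.

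Taking both vectors together sharpened the measurement. The median standard error (SE) of a log2 fold change was 0.46 over 12 libraries, 0.63 in GFP muscle alone and 0.63 in Crtc2 muscle alone. With 3 against 3 libraries, 1140 genes (7.12%) passed in GFP muscle and 1758 (11%) in Crtc2 muscle, comparisons that are made of the same libraries as the pooled one and so are no separate evidence. Those counts leaned on single libraries, with 714, 671 and 733 genes in GFP muscle without ADF GFP replicate 1, 2 or 3, and 1103 in Crtc2 muscle without ADF Crtc2 replicate 1. Among the genes that passed over all 12 libraries, 761 also passed in both vectors, 1095 in a single vector and 873 in neither. These 873 had a median absolute log2 fold change of 0.95 and 463 of them were under 2-fold. Of the 873, 396 had a change between 0.5 and 1 on the log2 scale, where 1174 of 4167 genes passed over all libraries, against 385 in GFP and 666 in Crtc2 muscle alone; 67 had a smaller change and the rest a larger one. In the other direction, 280 genes passed with at least 1 vector but not in the pooled fit.

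**Figure D1:**
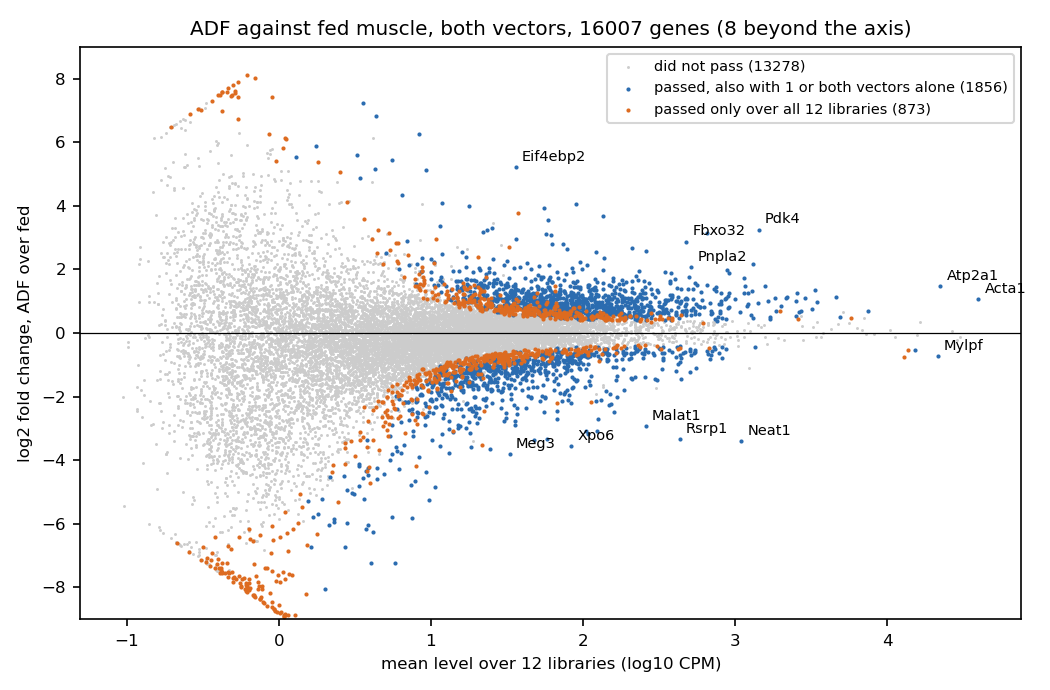
Each point is a gene, with its mean level over the 12 libraries (log10 CPM) on the horizontal axis and its log2 fold change of ADF over fed on the vertical axis. Orange points are the 873 genes that passed only over all 12 libraries; among well measured genes they line the inner edge of the blue points, and a further set lies at low levels, where changes are large and poorly measured.

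The gene groups moved in a pattern that can be read from their medians. Lists of PPAR targets, ubiquitin ligases, lipid droplet genes, glycogen genes and glucocorticoid targets had medians from 0.81 to 1.39. Respiratory chain and ribosomal protein lists had medians from -0.48 to -0.39, and splicing regulators (-1.44) and nuclear noncoding RNAs (-2.94) lay lowest.

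**Figure D2:**
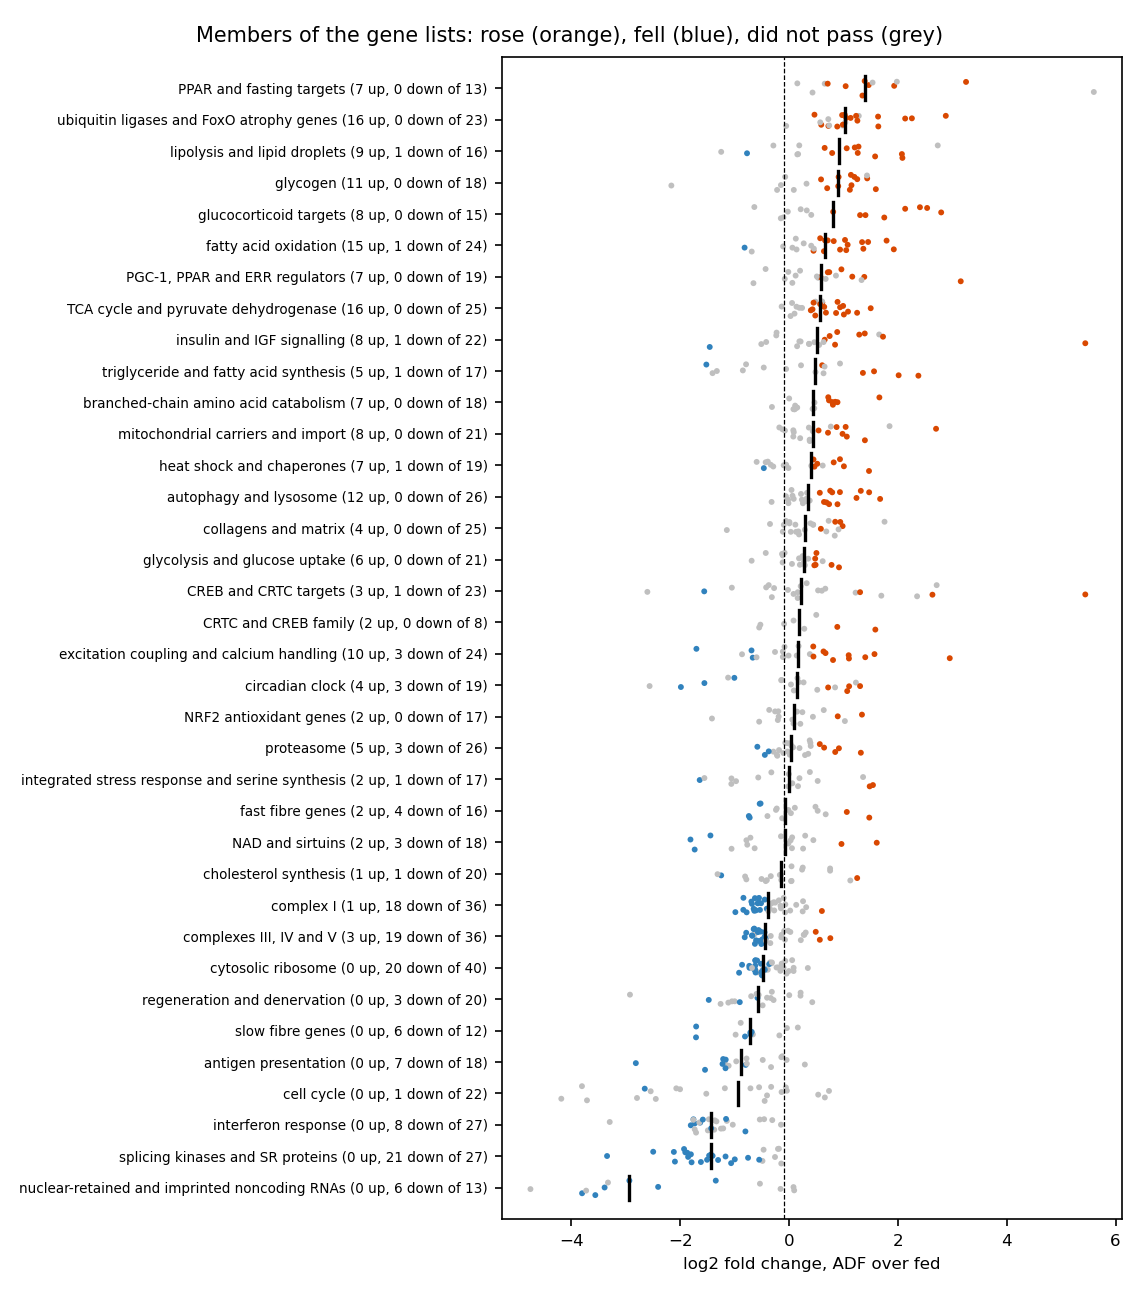
Members of 36 gene lists by log2 fold change of ADF over fed (horizontal axis), with orange points for members that rose, blue for those that fell and grey for those that did not pass; the black bar is the median of a list and the dashed line the median of all genes (-0.09). Lists of PPAR targets, fatty acid oxidation, glycogen and ubiquitin ligases sit to the right of the line. Those of the respiratory chain, ribosomal proteins, splicing, nuclear RNAs and interferon sit to the left.

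Eif4ebp2, a repressor of cap-dependent translation, lay between 0.505 and 3.52 CPM in fed muscle (median 1.85) and between 55.3 and 96.4 CPM in ADF muscle (median 66.1), a 36.1-fold difference of the means (log2 fold change 5.21, SE 0.45, adjusted p = 5.83e-07). The lowest ADF library lay far above the highest fed library. Pm20d2, at 0 in 4 of the 6 fed libraries, rose to 6.75 to 29.4 CPM in ADF muscle, and Klhl34 rose from 0 to 3.23 CPM to 14.4 to 31.2 CPM. Hipk2, a nuclear protein kinase, rose from 0 to 9.69 CPM to 48.7 to 116 CPM, with 1 fed library at 0, and Ston2 from 1.15 to 8.23 CPM to 29.8 to 51.7 CPM. Klhl34 missed the threshold when same-numbered libraries of a diet were summed (adjusted p = 0.0504). Arhgap5, a GTPase-activating protein, rose 9.64-fold. Phospho1, a phosphatase of phosphocholine, rose 15.9-fold, but 89.6% of its exon bases lie also in the gene model of Zfp652 on the same strand, so its reads are uncertain. Mir6236 belongs to the ribosomal RNA-like genes named above and rose 12.9-fold.

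Among the largest falls was that of an abundant noncoding RNA. Neat1, the noncoding RNA that builds nuclear paraspeckles (chr19:5824708-5845478, GRCm38), lay between 1458 and 2705 CPM in fed muscle (median 1824) and between 112 and 291 CPM in ADF muscle (median 178), and fell by 3.39 on the log2 scale (SE 0.15, adjusted p = 5.72e-13), a 10.3-fold difference of the means. Fed and ADF libraries lay far apart, with no overlap. Xpo6, the exportin of actin from the nucleus, lay between 100 and 272 CPM (median 141) in fed and between 8.29 and 15.9 CPM (median 13.6) in ADF muscle, and fell 12.1-fold. Col24a1, a fibrillar collagen chain, fell 11.2-fold, from 23.4 to 78.5 CPM in fed to 1.17 to 8.09 CPM in ADF muscle. Mtx3, a metaxin of the mitochondrial outer membrane, fell 11.5-fold, and Atg16l2, a relative of an autophagy conjugation factor, fell 9.88-fold. Oas2, a sensor of double-stranded RNA induced by interferon, Spaca6, Muc4 and Ccdc163 were at or near 0 in several ADF libraries, so their fitted changes are poorly bounded. The Mir133a-2 row fell from 18.1 to 22.7 CPM to 0.0857 to 1.62 CPM; it counts reads of longer transcripts over the hairpin and not the mature microRNA.

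Promoters of 4 genes whose levels changed are shown as examples that carry, near the start site, the motif of a factor that acts in fasting. The motifs are those of CREB (the full CRE, TGACGTCA), basic helix-loop-helix factors of the clock and Myc type (the E-box, CACGTG) and FoxO (TGTTTAC). Among the named genes Atf1, Atg16l2, Col24a1, Irs2, Mtx3, Per1 and Phospho1 also carried such a motif and are not shown. Each window reaches from 250 bases before to 50 bases after the start, is taken from RefSeq on GRCm38.p6, and is written 5′ to 3′ on the strand of the gene with the motif in capitals. Pdpr encodes the regulatory subunit of the phosphatase that acts on pyruvate dehydrogenase. Its window (chr8:111094495-111094794, plus strand) holds an E-box at -172 to -167 and a full CRE at -148 to -141 relative to the start. Klf15, a fasting transcription factor of muscle, has 3 E-boxes (chr6:90462326-90462625, plus strand), from -228, -172 and -3. Trim63, the ubiquitin ligase MuRF1, has a FoxO core at -194 to -188 (chr4:134314870-134315169, plus strand). Meg3, an imprinted noncoding RNA that fell, has a full CRE at -57 to -50 (chr12:109540746-109541045, plus strand).
Pdpr: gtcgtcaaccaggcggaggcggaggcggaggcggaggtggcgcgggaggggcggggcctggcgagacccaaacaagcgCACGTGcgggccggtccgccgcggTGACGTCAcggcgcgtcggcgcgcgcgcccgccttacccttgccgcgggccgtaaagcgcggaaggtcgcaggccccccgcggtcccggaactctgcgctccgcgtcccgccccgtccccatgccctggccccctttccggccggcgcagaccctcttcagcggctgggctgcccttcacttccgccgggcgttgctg
Klf15: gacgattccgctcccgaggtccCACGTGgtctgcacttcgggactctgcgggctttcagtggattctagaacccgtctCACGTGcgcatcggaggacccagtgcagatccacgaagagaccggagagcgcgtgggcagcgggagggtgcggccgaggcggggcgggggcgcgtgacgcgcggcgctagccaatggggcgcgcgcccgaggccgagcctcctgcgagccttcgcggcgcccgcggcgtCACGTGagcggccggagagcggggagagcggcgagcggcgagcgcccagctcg
Trim63: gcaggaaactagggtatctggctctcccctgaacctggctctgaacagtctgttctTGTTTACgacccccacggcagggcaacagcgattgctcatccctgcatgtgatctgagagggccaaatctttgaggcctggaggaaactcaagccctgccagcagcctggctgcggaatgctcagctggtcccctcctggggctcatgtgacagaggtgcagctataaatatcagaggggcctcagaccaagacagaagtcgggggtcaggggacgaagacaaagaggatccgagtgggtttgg
Meg3: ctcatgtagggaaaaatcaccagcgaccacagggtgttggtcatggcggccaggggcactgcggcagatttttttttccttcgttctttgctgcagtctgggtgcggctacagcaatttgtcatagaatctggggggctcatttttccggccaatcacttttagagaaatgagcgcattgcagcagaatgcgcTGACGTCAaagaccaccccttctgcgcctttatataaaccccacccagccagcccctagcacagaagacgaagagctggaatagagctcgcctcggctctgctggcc

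Both strands of 14186 windows of 11091 tested genes were searched, 69.3% of the genes tested having a window. A full CRE was found in 2.81% of all windows, in 2.61% of those of genes that rose and in 3.32% of those of genes that fell. For the E-box the shares were 9.6, 9.4 and 8.48%, and for the FoxO core 2.61, 2.95 and 2.27%. The full palindromic glucocorticoid response element was found in 1 window of all and in 0 of those of genes that changed. The shares among genes that changed lay close to those of all windows, so nothing is read from them, and a match describes letters in a window and not a bound site.

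Pdk4, Pdk2 and Pdpr, whose products regulate pyruvate dehydrogenase, rose. Pdk4, the kinase that shuts the complex in fasting (chr6:5483351-5496309), lay between 111 and 477 CPM in fed muscle (median 256) and between 1801 and 3398 CPM in ADF muscle (median 2603), and rose 9.44-fold (log2 fold change 3.25, SE 0.33, adjusted p = 2.32e-05). All 6 ADF libraries lay well above all 6 fed libraries. Pdk2, another kinase of the family, rose 2.84-fold, from 295 to 421 CPM to 735 to 1084 CPM. Pdpr, the regulatory subunit of the phosphatase, rose as well, from 3.24 to 19.9 CPM (median 8.98) to 148 to 196 CPM (median 166; log2 fold change 4.05, SE 0.44, adjusted p = 4.34e-05). Among the subunits Pdha1 (0.99), Dlat (0.94) and Dld (0.89) rose, and these 3 are named after their values were seen.

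**Figure D3:**
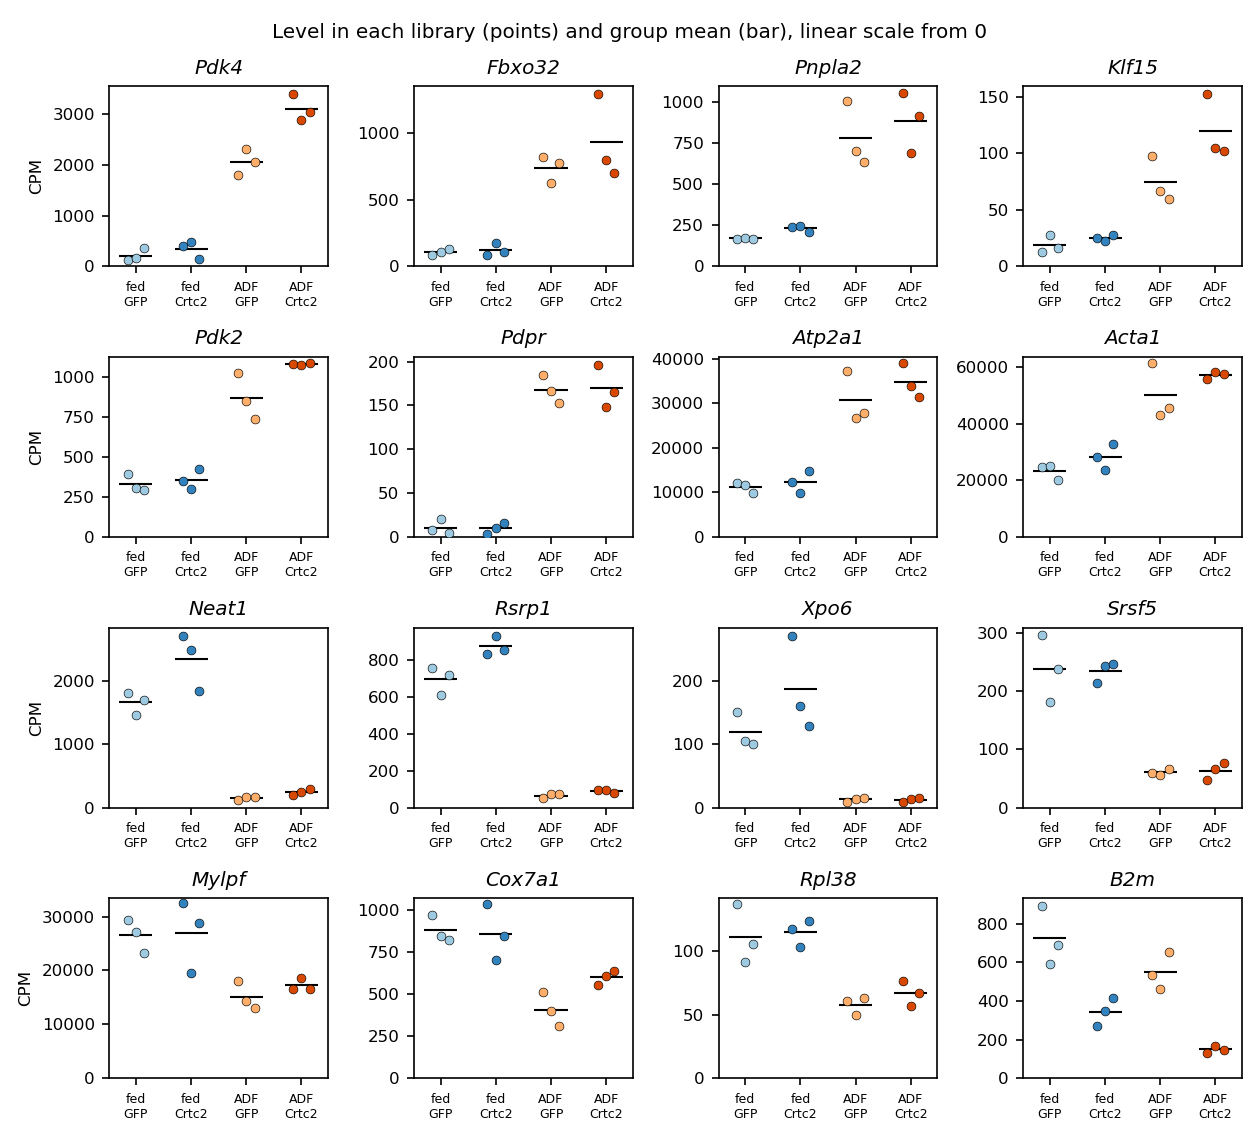
Level of 16 genes in each library (points, CPM on a linear axis from 0) by group, with the group mean as a bar. For Pdk4, Fbxo32, Neat1 and Rsrp1 the fed and ADF libraries do not overlap with either vector, while for B2m the ADF GFP libraries (464 to 655 CPM) lie above the fed Crtc2 libraries (269 to 418 CPM).

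Genes of lipolysis and lipid droplets rose more often than they fell. Of 16 tested, 9 rose and 1 fell, or 6 and 1 when libraries were scaled to their totals. Their median log2 fold change was 0.93 against -0.09 for all genes. Pnpla2, the lipase ATGL that takes the first fatty acid from triglyceride, lay between 166 and 245 CPM in fed (median 190) and between 635 and 1052 CPM in ADF muscle (median 807), and rose 4.17-fold (log2 fold change 2.07, SE 0.14, adjusted p = 5.98e-10). The droplet coat proteins Plin5, which tethers droplets to mitochondria, and Plin4 rose 4.35-fold and 2.99-fold. Lpl, which frees fatty acids from circulating lipoproteins, rose 2.12-fold although its highest fed library (315 CPM) lay above its lowest ADF library (290 CPM). The single fall, G0s2, an inhibitor of Pnpla2 (-0.77, adjusted p = 0.0485), named after its value was seen, was lost in every fit that left out 1 library except those without ADF Crtc2 replicate 1, Fed GFP replicate 2, Fed GFP replicate 3 or Fed Crtc2 replicate 1, with an adjusted p of up to 0.172 (without Fed GFP replicate 1), and in 4 other alternatives, with up to 0.119 (length trend removed). Of the 7 adipocyte markers tested, Cfd (1.30, adjusted p = 0.00756) rose and the others did not pass, with a median of 1.30. Adipoq (2.11), Plin1 (2.48) and Cidec (2.73), the last of them also in the lipid list, were each below 5 CPM on average with either diet, while Fabp4 was at -0.29. The sum of the markers, most of it Car3, which muscle fibres also express, ran from 3898 to 6142 CPM in ADF and from 3982 to 5637 CPM in fed muscle (exact permutation p = 0.45), and the part of fat cells in the rise of the lipid genes was not tested.

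Of 13 PPAR and fasting targets 7 rose and 0 fell, with a median of 1.39. Besides Pdk4 these were Vldlr, a lipoprotein receptor (2.55-fold), Acot2, a mitochondrial acyl-CoA thioesterase (3.82-fold), and Slc25a20, the carnitine-acylcarnitine carrier (2.07-fold), and, named after their values were seen, Ucp2, Ucp3 and Hadha. Angptl4, a secreted inhibitor of lipoprotein lipase and a well known PPAR target, did not pass, with 8.49 to 31 CPM in ADF and 0 to 13.4 CPM in fed muscle (log2 fold change 1.53, SE 0.82, adjusted p = 0.256). Among their regulators, 7 of 19 rose and 0 fell (median 0.58), or 6 and 0 when libraries were scaled to totals. Ppard, the PPAR form of muscle, rose 2.61-fold, its partner Rxra 2.24-fold, the corepressor Ncor1 1.96-fold and Perm1, a muscle regulator acting with PGC-1 and ERR, 1.69-fold. Ppargc1a, which encodes PGC-1alpha, lay at 24.5 to 52.2 CPM in ADF and 16.4 to 44.4 CPM in fed muscle and did not pass (log2 fold change 0.53, SE 0.26, adjusted p = 0.185).

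Fatty acid oxidation followed, with 15 of 24 members rising, 1 falling and a median of 0.65. When libraries were scaled to totals, 12 rose and 1 fell. Acsl1, which activates long-chain fatty acids as CoA esters, lay between 99 and 179 CPM (median 152) in fed and between 455 and 652 CPM (median 521) in ADF muscle, and rose 3.81-fold (log2 fold change 1.92, SE 0.16, adjusted p = 1.07e-08). Mlycd, which removes malonyl-CoA, the brake on entry to mitochondria, rose 2.78-fold, and the short-chain dehydrogenase Acads 2.54-fold. Acadvl, the very long-chain dehydrogenase, rose 3.46-fold, with the limit that 42.9% of its exon bases overlap the model of Dvl2. The only member to fall was Etfb, a small subunit of the electron transfer flavoprotein (-0.82, adjusted p = 0.00041, named after its value was seen), while its partners Etfa (0.57) and Etfdh (1.36) rose, Etfa not with scaling to totals (adjusted p = 0.158). Cpt1b, the muscle carnitine palmitoyltransferase, did not pass (8.55 to 13.3 CPM in ADF, 4.73 to 9.52 CPM in fed, adjusted p = 0.262), and 81.4% of its exon bases lie in another model on the same strand, so its reads are uncertain.

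Genes for building lipid did not fall as a group. Of 17 members 5 rose and 1 fell, with a median of 0.49. Gpam, the first enzyme of glycerolipid synthesis, lay between 28.1 and 65.5 CPM (median 41.3) in fed and 174 and 277 CPM (median 230) in ADF muscle, a 5.17-fold rise (adjusted p = 2.5e-09). Lpin1, a phosphatidate phosphatase and coactivator, rose 2.56-fold and Acacb, which makes malonyl-CoA at the mitochondrion, 2.99-fold. Agpat3 (0.61) and Dgat2 (2.01), also acyltransferases of glycerolipid synthesis, were the others that rose and are named after their values were seen. Mlxipl, the carbohydrate-responsive factor ChREBP, fell 2.87-fold, with 83.2 to 220 CPM (median 126) in fed and 37.8 to 58.6 CPM (median 42.9) in ADF muscle and no overlap. Fasn, the fatty acid synthase, and Srebf1, its sterol-responsive regulator, did not pass (log2 fold changes 0.65, adjusted p = 0.199, and 0.22, adjusted p = 0.634). Of 20 cholesterol synthesis genes, Fdft1, the squalene synthase, rose 2.43-fold, Mvd, the mevalonate decarboxylase, fell 2.42-fold and 18 did not pass. The share that passed was 10%, below the 17% of all genes, so nothing is read from that count. The number that fell in the lipid building list became 3 with scaling to totals, and 3 of 15 members among genes of at least 10 CPM. It became 2 without the Fed GFP replicate 2, Fed GFP replicate 3, Fed Crtc2 replicate 1 or Fed Crtc2 replicate 2 library. The number that rose in cholesterol synthesis became 2 without Fed GFP replicate 2 or Fed Crtc2 replicate 2.

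Many genes of the TCA cycle rose and many of the respiratory chain fell. Of 25 genes of the cycle and of pyruvate dehydrogenase 16 rose and 0 fell (median 0.57), or 10 rose and 1 fell when libraries were scaled to their totals. Ogdh, a subunit of oxoglutarate dehydrogenase, lay between 499 and 818 CPM (median 720) in fed and 1174 and 1749 CPM (median 1670) in ADF muscle, a 2.35-fold rise. Sdha, the catalytic subunit of succinate dehydrogenase, rose 2.12-fold. By contrast 18 of 36 complex I genes fell and 1 rose (median -0.39), and 19 of 36 genes of complexes III, IV and V fell and 3 rose (median -0.45). In GFP muscle 20 complex I genes fell and 0 rose (median -0.67), against 3 that fell and 4 that rose in Crtc2 muscle (median -0.14). For complexes III to V the counts were 20 and 1 with GFP (median -0.68) and 1 and 4 with Crtc2 (median -0.17). In edgeR's quasi-likelihood test the difference between vectors passed for none of these genes. TCA cycle genes rose in 7 cases with GFP and 14 with Crtc2. Among those that fell were Ndufb7 (1.78-fold), Ndufb2 (1.92-fold), Ndufa2 (1.69-fold) and Ndufa11 (1.6-fold), accessory subunits of complex I. In the other complexes Cox7a1, the heart and muscle form of a cytochrome oxidase subunit, fell 1.73-fold, and the small ATP synthase subunits Atp5e and Atp5j2 fell 1.71-fold and 1.55-fold. Cox6a2, another muscle form (-0.45, adjusted p = 0.0249), was not called without ADF GFP replicate 2 (adjusted p = 0.0757), ADF GFP replicate 3 (0.0611), ADF Crtc2 replicate 2 (0.0572) or Fed GFP replicate 1 (0.0612), nor with length taken into account (0.15).

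A few members of the chain rose. Ndufs1, the biggest core subunit of complex I (0.60, adjusted p = 0.00373), Uqcrc1 of complex III (0.56) and the catalytic core of ATP synthase, Atp5a1 (1.7-fold) and Atp5b (1.41-fold), all rose; Ndufs1 and Uqcrc1 are named after their values were seen. Ndufs1 missed the threshold when libraries were scaled to totals, and a further complex I gene rose without ADF GFP replicate 3. Length moved with these results over the whole data set. Among 7788 genes of at least 10 CPM, the shortest of 5 groups of equal size by summed exon length had a median log2 fold change of -0.19, with 135 higher and 292 lower, and the other 4 groups of equal size had medians from 0.09 to 0.15 (Spearman's correlation 0.12 across genes, which are not independent replicates). With the trend against length removed in each library, 15 complex I genes (median -0.28) and 12 genes of complexes III to V (median -0.30) still fell, 1 and 3 rose, and the TCA cycle list kept a median of 0.54 with 14 that rose.

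**Figure D4:**
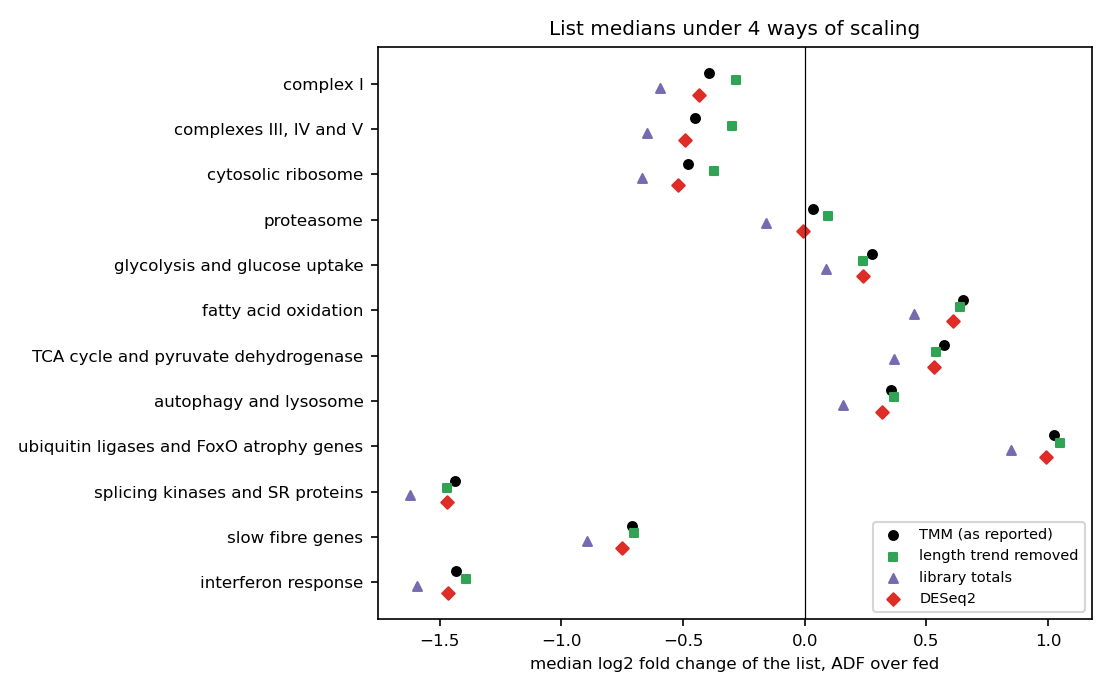
Median log2 fold change of ADF over fed (horizontal axis) of 12 gene lists under 4 ways of scaling the libraries, each with its own symbol. The proteasome list changes sign, and the respiratory chain and ribosome lists come nearer to 0 once the trend against length is removed.

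Of 18 glycogen genes 11 rose and 0 fell (median 0.91), and both the building and the breaking side were among them. Gys1, the glycogen synthase of muscle, lay between 344 and 500 CPM (median 390) in fed and 824 and 1319 CPM (median 1085) in ADF muscle, a 2.68-fold rise (log2 fold change 1.43, SE 0.13, adjusted p = 4.2e-08). Ugp2, which makes UDP-glucose, rose 2.39-fold and Ppp1r3a, the subunit that brings protein phosphatase 1 to glycogen, 2.18-fold. On the breakdown side Pygm, the muscle phosphorylase and among the most abundant messages measured, rose 1.63-fold, with 4000 to 7535 CPM in fed and 7160 to 10773 CPM in ADF muscle.

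In glycolysis and glucose uptake 6 of 21 genes rose and 0 fell (median 0.27), or 3 rose and 3 fell when libraries were scaled to totals. The lactate exporter Slc16a3 rose 1.9-fold and Pgk1, phosphoglycerate kinase, 1.72-fold. Smaller changes in Pfkm, phosphofructokinase (1.4-fold), and Hk2, hexokinase 2 (1.38-fold), passed over 12 libraries but not with either vector alone. They depended on ADF GFP replicate 1, without which their adjusted p was 0.0528 and 0.0525 and 2 genes of the list passed. Hk2 was also lost with scaling to totals (adjusted p = 0.0796).

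Genes of protein breakdown rose. Of 23 ubiquitin ligase and FoxO atrophy genes 16 rose and 0 fell (median 1.02), or 12 and 0 when libraries were scaled to totals. Of the 16, 13 had no overlap between fed and ADF libraries, against 52.2% of all genes that passed. Fbxo32, the muscle ubiquitin ligase atrogin-1 (chr15:58175879-58214932), lay between 81.5 and 170 CPM (median 106) in fed and 623 and 1295 CPM (median 786) in ADF muscle, and rose 7.4-fold (log2 fold change 2.88, SE 0.19, adjusted p = 3.62e-10). Trim63, the ligase MuRF1 that marks thick filament proteins, rose 3.15-fold, from 156 to 208 CPM (median 178) to 327 to 1098 CPM (median 507), and so spread far more widely under ADF than in fed muscle. Fbxo31, a further F-box protein, rose 3.17-fold, Ddit4, an inhibitor of mTORC1, 4.82-fold and Klf15 4.47-fold. Foxo3, a driver of these genes, rose 2.18-fold without overlap. Foxo1 (0.89, adjusted p = 0.0415) and Mstn, the growth inhibitor myostatin (1.02, adjusted p = 0.0319), passed narrowly. Foxo1 missed the threshold in every fit that left out 1 library except those without ADF GFP replicate 1, ADF Crtc2 replicate 3, Fed GFP replicate 2 or Fed Crtc2 replicate 3, with an adjusted p of up to 0.203 (without ADF Crtc2 replicate 1). It was lost as well with scaling to totals (0.132), the replicate block (0.0578), spread estimates that were not robust (0.0507) and the length trend removed (0.0501). Mstn missed it without ADF GFP replicate 1 or 3, ADF Crtc2 replicate 2 or 3, Fed GFP replicate 3 or Fed Crtc2 replicate 1 or 2, with up to 0.0909 (without ADF GFP replicate 3), and with scaling to totals (0.0786).

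Autophagy genes rose in 12 of 26 cases with 0 falls (median 0.35), or in 10 cases when libraries were scaled to totals. Ulk1, the kinase that starts autophagy, rose 2.78-fold, from 32.7 to 53.3 CPM (median 45.5) to 88.7 to 188 CPM (median 113). The cargo receptor Sqstm1 (1.91-fold), Wipi1, which binds the forming membrane (2.41-fold), and Gabarapl1, an ATG8 protein of that membrane (2.5-fold, with 28.3% of its exon bases shared with another gene), rose as well. Of 26 proteasome subunits 5 rose, 3 fell and 18 did not pass. Psmd1, Psmd11, Psmd2 and Psmd8 of the regulatory cap rose 2.48-fold, 1.89-fold, 1.8-fold and 1.56-fold, together with the cap ATPase Psmc1 (0.56). The core subunits Psmb3, Psma4 and Psmb6 fell (-0.58, -0.45 and -0.37), and Psmc1, Psma4 and Psmb6 are named after their values were seen. Psma4 was lost without ADF GFP replicate 1 (adjusted p = 0.0573) and without the filter on low counts (0.0635). Psmb6 was lost in 7 of the 12 fits that left out 1 library, with up to 0.122 (without ADF GFP replicate 2), and in 4 other alternatives, with up to 0.131 (length trend removed). The median of all 26 subunits was 0.03 and turned to -0.16 when scaled to totals and to -0.01 with DESeq2, and falls among them numbered 5 when scaled to totals.

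Glucocorticoid target genes rose in 8 of 15 cases with 0 falls (median 0.81), and none of the 8 overlapped between diets. Klf9, a transcription factor induced directly by the receptor, lay between 20.2 and 58.3 CPM (median 31.2) in fed and between 198 and 218 CPM (median 207) in ADF muscle, a 5.76-fold rise (log2 fold change 2.54, SE 0.20, adjusted p = 2.59e-09). Its ADF values lay close together, well above every fed value. Zbtb16, another receptor target, rose 3.4-fold and Glul, glutamine synthetase, by which muscle exports nitrogen, 2.65-fold. In branched-chain amino acid breakdown 7 of 18 rose and 0 fell (median 0.45), or 5 and 0 when libraries were scaled to totals. Among the 7 were Pccb (1.73-fold) and Aldh6a1 (1.86-fold), late enzymes of the valine route. Bckdk, the kinase that inhibits the branched-chain dehydrogenase (1.77-fold), was another. Bckdha, a subunit of that dehydrogenase, rose 3.17-fold, though 61.7% of its exon bases overlap B3gnt8 on the opposite strand.

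Insulin and IGF signalling showed 8 genes that rose and 1 that fell of 22 (median 0.51), or 6 and 2 when libraries were scaled to totals. Irs2, an adaptor of the insulin receptor, was at 0 in all 3 fed GFP libraries, at 0.556, 0.666 and 2.5 CPM in the fed Crtc2 libraries and between 6.4 and 16.9 CPM under ADF (adjusted p = 0.00328). Because a whole group lay at 0, its fitted change does not measure the size of the rise. Tbc1d1, which controls the traffic of glucose transporters, rose 3.32-fold, the kinase Pdpk1 2.45-fold, Akt2, the insulin-responsive Akt form, 1.79-fold and the receptor Insr 1.66-fold. Igfbp5, an IGF-binding protein made in muscle, fell 2.59-fold, from 365 to 842 CPM (median 657) to 108 to 389 CPM (median 224), and a further gene of the list fell without Fed GFP replicate 2. Igf1 ranged from 2.63 to 41.3 CPM under ADF and from 1.56 to 29.4 CPM in fed muscle and did not pass (adjusted p = 0.644).

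Ribosomal protein genes fell by small amounts. Of 40 tested, 20 fell and 0 rose (median -0.48), 13 without overlap and 7 that passed with neither vector alone. Rpl38 lay between 91 and 137 CPM (median 112) in fed and 49.4 and 76.1 CPM (median 62) in ADF muscle, a 1.82-fold fall (-0.86, SE 0.15, adjusted p = 0.000198). Rps19, Rps15 and Rpl32 fell 1.66-fold, 1.54-fold and 1.56-fold. These are short genes with many processed copies in the genome, so reads may be shared, and with the trend against length removed 14 fell (median -0.37), while with scaling to totals 28 did.

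Of 23 CREB and CRTC targets 3 rose and 1 fell (median 0.21), or 17.4%, close to the 17% of all genes, so nothing is read from the count. Pde4d, a phosphodiesterase that ends cAMP signals, lay between 11.1 and 28.3 CPM (median 24.3) in fed and 107 and 190 CPM (median 128) in ADF muscle, a 6.05-fold rise (log2 fold change 2.63, SE 0.22, adjusted p = 8.16e-09). Per1, also a clock gene, rose 2.46-fold, Irs2 rose as given above, and Id1, an inhibitor of helix-loop-helix factors, fell 3-fold. Without Fed Crtc2 replicate 1 the number that rose was 5, and without Fed GFP replicate 2 the number that fell was 2. With DESeq2, without the filter on low counts, with 4 group means and with GFP alone 4 rose. With scaling to totals and with the length trend removed the number stayed at 3. Nr4a1, an orphan receptor induced by cAMP, did not pass (0.32, adjusted p = 0.258), nor did the kinase Sik1 (0.16, adjusted p = 0.783). Nr4a3, another such receptor, missed the threshold narrowly (2.71, adjusted p = 0.0504). It lay at 12.8 to 46.4 CPM in ADF and 0 to 14.2 CPM in fed muscle. Of 8 genes of the CRTC and CREB family 2 rose. Atf1, a close relative of Creb1, rose 2.89-fold, from 2.53 to 18.7 CPM to 24.4 to 35.7 CPM, and the coactivator Ep300 rose 1.84-fold, except without ADF Crtc2 replicate 1 (adjusted p = 0.0581) or with scaling to totals (0.0771). Creb1 did not pass (-0.55, adjusted p = 0.262).

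Clock genes split, with 4 of 19 rising and 3 falling. Per3, a repressor of the clock, fell 3.97-fold, from 65.6 to 105 CPM (median 85.9) to 11.8 to 32.9 CPM (median 21.8). Per2 (-1.56) and Dbp, a factor driven by the clock (-1.01), both named after their values were seen, fell as well, while Per1 and the activator Rora (2.13-fold) rose. A further rise, Nr1d1 (0.72, adjusted p = 0.0418, named after its value was seen), was lost in 8 of the 12 fits that left out 1 library, with an adjusted p of up to 0.121 (without Fed GFP replicate 2), and in 3 other alternatives, with up to 0.139 (scaling to totals). Arntl, the central activator, did not pass (1.23, adjusted p = 0.445). The hour of collection was not given, and a difference in hour between diets cannot be told apart from fasting.

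Stress and redox genes were less uniform. Ddit3, the stress factor CHOP, fell 3.13-fold, from 38.6 to 69 CPM (median 48.5) to 11.7 to 20.5 CPM (median 16.6), while Ppp1r15a, which reverses the translation block of the integrated stress response, rose 2.92-fold. A further rise in that list of 17, Chac1 (adjusted p = 0.0304), was lost without ADF Crtc2 replicate 1 (0.0609), ADF Crtc2 replicate 2 (0.0509), Fed Crtc2 replicate 2 (0.0693) or Fed Crtc2 replicate 3 (0.0714). In that stress list 17.6% passed, close to the 17% of all genes, so nothing is read from the count. Of 17 NRF2 antioxidant genes Cat, catalase (2.51-fold), and Txnrd1, thioredoxin reductase (1.86-fold), rose. That is 11.8%, below the 17% of all genes, so nothing is read from that count either. Of 19 chaperones 7 rose and 1 fell (median 0.41), or 4 and 4 when scaled to totals. Hspb7, a small heat shock protein of muscle, rose 2.77-fold, Bag3, a cochaperone, 1.99-fold, Hsp90ab1 1.91-fold and the mitochondrial Hspa9 1.77-fold, and Hspa8 fell (-0.46, adjusted p = 0.0232, named after its value was seen), except without ADF Crtc2 replicate 2, ADF Crtc2 replicate 3 or Fed Crtc2 replicate 1 (adjusted p up to 0.0947). Of 18 genes of NAD metabolism and sirtuins 2 rose, 3 fell and 13 did not pass, with a median of -0.08 against -0.09 for all genes. Nampt (1.93-fold), which makes NAD from nicotinamide, and the mitochondrial NAD kinase Nadk2 (3.04-fold) rose. The muscle kinase Nmrk2 of nicotinamide riboside fell 2.69-fold and the sirtuin Sirt4 2.92-fold. Cd38, an NAD-consuming enzyme, also fell (-1.81, named after its value was seen).

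Mitochondrial carrier and import genes rose in 8 of 21 cases with 0 falls (median 0.43). Mfn2, which fuses outer membranes, lay between 281 and 468 CPM (median 397) in fed and 747 and 1266 CPM (median 1085) in ADF muscle, a 2.64-fold rise. Slc25a12, the aspartate-glutamate carrier, rose 2.09-fold and Opa1, which fuses inner membranes, 1.97-fold. Without ADF Crtc2 replicate 1, ADF Crtc2 replicate 3 or Fed Crtc2 replicate 3, or when scaled to totals, 5 rose.

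Among the most abundant messages, genes of the contractile apparatus changed in both directions. Acta1, skeletal actin, lay between 20130 and 32726 CPM (median 24780) in fed and 43045 and 61502 CPM (median 56558) in ADF muscle, a 2.08-fold rise (log2 fold change 1.06, SE 0.13, adjusted p = 2.05e-06). Atp2a1, the calcium pump of fast fibres, rose 2.78-fold, from 9849 to 14842 CPM (median 11866) to 26812 to 39022 CPM (median 32653), with 21.9% of its exon bases shared with Rabep2. Other abundant fast fibre messages fell: the light chains Mylpf (1.65-fold, 19556 to 32421 CPM in fed and 13090 to 18690 CPM in ADF) and Myl1 (1.44-fold), the troponin Tnni2 (1.44-fold) and the calcium buffer Pvalb (1.67-fold). Pvalb ran from 9716 to 26541 CPM in fed muscle and overlapped with ADF muscle. Tnni2 overlapped as well, with its lowest fed library at 12160 CPM and its highest ADF library at 14040 CPM. Without Fed Crtc2 replicate 3 the number of fast fibre genes that rose was 4 in place of 2. Myosin heavy chains did not pass, with Myh4 at -0.13 (SE 0.25), Myh1 at 0.11 (SE 0.23), Myh2 at -0.40 (SE 0.27) and Myh7 at -0.18 (SE 0.57), nor did Ckm, muscle creatine kinase (0.35, adjusted p = 0.148).

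Of 12 slow fibre genes 6 fell and 0 rose (median -0.71), and 1 was free of overlap. With GFP alone 1 fell and with Crtc2 alone 3 did. Tnnt1, the slow troponin T, fell 2.89-fold, from 36.1 to 159 CPM (median 55.5) to 8.33 to 40.1 CPM (median 24.3), with overlap at the edge. Tnnc1, the slow troponin C, fell 3.43-fold and Casq2, the slow calsequestrin, 1.61-fold. Mybph fell 1.62-fold, with 49.9% of its exon bases shared with Adora1. Mybph and Casq2 overlapped between diets. Their lowest fed libraries lay at 71.5 and 44 CPM and their highest ADF libraries at 116 and 91 CPM. Of 24 genes of excitation coupling and calcium handling 10 rose and 3 fell (median 0.16), or 8 and 5 when scaled to totals. The voltage sensor Cacna1s rose 2.96-fold, from 216 to 363 CPM to 664 to 1021 CPM (with part of its exon bases shared with another gene), the sodium channel Scn4a 2.63-fold, the release channel Ryr1 2.14-fold and Srl, a protein of the reticulum, 2.14-fold. Sln, an inhibitor of the calcium pump (-1.70), Stac3, which joins the voltage sensor to the release channel (-0.67), and the chloride channel Clcn1 (-0.69) fell and are named after their values were seen. Of 20 regeneration and denervation genes 3 fell, 0 rose and 17 did not pass (median -0.57). That is 15%, against 17% of all genes, so nothing is read from the count. With GFP alone 0 fell (median 0.01) and with Crtc2 alone 4 did (median -1.09). The difference between vectors passed for none of these genes in edgeR's test. Chrnb1, an acetylcholine receptor subunit, fell 1.86-fold, and the developmental myosin Myh3 2.57-fold, the latter not without the vector term (adjusted p = 0.0821). Myh8, the neonatal form (-0.58, adjusted p = 0.0237), was lost without ADF Crtc2 replicate 2 (0.0607), ADF Crtc2 replicate 3 (0.0799) or Fed Crtc2 replicate 1 (0.0782).

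Splicing regulators fell as a block. Of 27 tested, 21 fell and 0 rose, with a median of -1.44, and 17 had no overlap. Rsrp1, an arginine and serine rich nuclear protein (chr4:134923592-134927671), lay between 613 and 933 CPM (median 797) in fed and between 49.7 and 97.8 CPM (median 77) in ADF muscle, and fell by 3.35 on the log2 scale (SE 0.14, adjusted p = 1.56e-13). Luc7l3, a partner of the U1 particle, fell 4.35-fold, Srsf5, an SR protein, 3.81-fold and Rbm5, a splicing repressor, 3.65-fold. Among noncoding RNAs kept in the nucleus or imprinted, 6 of 13 fell and 0 rose (median -2.94). Beside Neat1 these included Malat1, the speckle RNA, which fell 7.72-fold from 327 to 621 CPM (median 475) to 28.6 to 76.4 CPM (median 63.7), Meg3 (13.8-fold) and Snhg20 (11.9-fold). The sizes with each vector were Neat1 at -3.52 in GFP and -3.27 in Crtc2 muscle and Rsrp1 at -3.41 and -3.28. These falls moved with the ribosomal RNA-like share of the counts, which was higher in every ADF library, and the part of library preparation or RNA quality in them was not tested.

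Of 27 interferon response genes 8 fell and 0 rose (median -1.43), but the count depended on the fit: 15 fell with DESeq2, 13 with scaling to totals and 13 among genes of at least 10 CPM, while 4 did without the vector term and 5 without ADF Crtc2 replicate 2 or Fed GFP replicate 1. With GFP alone 0 fell (median -0.92) and with Crtc2 alone 8 did (median -2.03). Stat2, a signalling partner of the interferon receptor, fell 3.17-fold, from 17.5 to 39.8 CPM to 1.35 to 15.1 CPM, and Gbp4, an interferon-induced GTPase, 3.44-fold. Ifi27 fell 1.73-fold. In antigen presentation 7 of 18 fell and 0 rose (median -0.88), with 0 of them free of overlap, and 1 fell with GFP alone and 8 with Crtc2 alone. After adjustment the difference between vectors passed for no gene of either list in edgeR's test. The count was 4 without ADF Crtc2 replicate 3, Fed GFP replicate 1 or Fed Crtc2 replicate 3, and 2 without the vector term. Nlrc5, the activator of class I genes, fell 6.05-fold, from 10.9 to 65.4 CPM (median 34.1) to 1.64 to 13.2 CPM (median 4.92). B2m, the class I light chain, and H2-K1, a class I heavy chain with near-identical relatives, fell 1.53-fold and 1.88-fold once vector was in the model, and not without it (adjusted p = 0.494 and 0.397). For B2m the libraries lay at 592 to 894 CPM in fed GFP, 269 to 418 CPM in fed Crtc2, 464 to 655 CPM in ADF GFP and 133 to 170 CPM in ADF Crtc2 muscle. H2-Q7 (-1.55, adjusted p = 0.0149) was not called without the vector term (adjusted p = 0.33), without Fed Crtc2 replicate 3 (0.0533) or with same-numbered libraries summed (0.071). Top2a, the only cell cycle gene of 22 to fall (adjusted p = 0.0421), was lost in 8 of the 12 fits that left out 1 library, with an adjusted p of up to 0.104 (without ADF Crtc2 replicate 3), and without the vector term (0.287).

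Markers of other cells were measured beside these groups, and in bulk muscle fewer cells of a type cannot be told apart from less RNA per cell. None of the 12 macrophage and 12 T and NK cell markers passed, and their summed levels overlapped between diets (macrophage 188 to 836 CPM in ADF and 220 to 466 CPM in fed muscle, exact permutation p = 0.185; T and NK cells p = 0.275). The sum of the 8 B cell and plasma cell markers ran from 35.7 to 3510 CPM in ADF and from 24.3 to 2389 CPM in fed libraries. Of 11 endothelial markers Kdr (-1.18), Esam (-0.86) and Egfl7 (-1.94) fell and 8 did not pass. Those 8 went both ways: Vwf (0.42), Flt1 (0.31), Cldn5 (0.10), Tek (-0.07), Pecam1 (-0.23), Cdh5 (-0.36), Tie1 (-0.40) and Emcn (-1.14). The endothelial sum was 342 to 616 CPM in ADF and 415 to 828 CPM in fed muscle (exact permutation p = 0.035, adjusted over the 12 marker lists p = 0.18). Of 8 smooth muscle and pericyte markers Acta2 (-0.97) and Myh11 (-0.91) fell and 6 did not pass, among them Rgs5 (-0.43), Notch3 (0.35) and Kcnj8 (0.14), with a sum of 255 to 481 CPM in ADF and 269 to 663 CPM in fed muscle (exact permutation p = 0.06, adjusted p = 0.18). Of 10 fibroblast markers 2 rose, Dcn and Gsn (1.14), and 2 fell, Ly6a, though not without the vector term (adjusted p = 0.117), and Cd34 (sum 1191 to 3630 CPM in ADF, 786 to 2195 CPM in fed, exact permutation p = 0.055). Neutrophil and mast cell markers summed to 3.93 to 10.2 CPM in ADF and 5.55 to 28.3 CPM in fed libraries (exact permutation p = 0.03, adjusted p = 0.18), with Cxcr2 at 0 or absent. None of the 5 tested passed, and each was below 5 CPM on average over the 12 libraries. They went both ways, with S100a8 (-4.89), S100a9 (-1.99) and Kit (-2.14) lower under ADF and Cpa3 (6.30) and Mcpt4 (2.69) higher. Apart from Myh11, the markers given here were named after their values were seen, and the part of cell composition in the changes above was not tested.

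Matrix genes rose in 4 of 25 cases with 0 falls (median 0.29). That is 16%, close to the 17% of all genes that passed, so nothing is read from the count. Each of the 4 passed with GFP alone and none with Crtc2 alone, but the difference between vectors did not pass for any of them after adjustment (Mmp2, unadjusted p = 0.00553). Mmp2, a gelatinase, lay at 144, 196 and 220 CPM in the ADF GFP libraries against 62.6 to 87.2 CPM in fed GFP, and at 43 to 77.7 CPM in ADF Crtc2 against 39.6 to 53.2 CPM in fed Crtc2 muscle (0.85, SE 0.21, adjusted p = 0.00495, and 0.116 without the vector term). Dcn, the proteoglycan decorin (0.94, adjusted p = 0.0171), was lost without Fed GFP replicate 2 (0.0525). The inhibitor Timp2 (0.58, adjusted p = 0.0179) was lost without ADF GFP replicate 3 (0.0553), ADF Crtc2 replicate 3 (0.0618) or Fed GFP replicate 2 (0.0606), and fibronectin, Fn1 (0.98, adjusted p = 0.0267), in 6 of the 12 such fits, with up to 0.0752 without Fed GFP replicate 2. When scaled to totals 0 of the list rose, and without the vector term Timp2 (0.0979) and Fn1 (0.131) were lost too. The number that rose was 2 without ADF Crtc2 replicate 3, 1 without Fed GFP replicate 2 and 8 without Fed Crtc2 replicate 2.

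A rule that asked for a change under 2-fold, a mean of at least 10 CPM, no overlap between 6 and 6 libraries, the same direction in both vectors and a pass with neither vector alone left 52 genes that rose and 43 that fell. The 10 with the smallest p in each direction are described. Cops2, a subunit of the COP9 signalosome that removes Nedd8 from ubiquitin ligases, lay between 22.4 and 65.4 CPM (median 44.6) in fed and 78.1 and 109 CPM (median 84.6) in ADF muscle (0.94, SE 0.21, adjusted p = 0.00248). Its changes of 0.96 in GFP and 0.92 in Crtc2 muscle missed the threshold singly (adjusted p = 0.0588 and 0.0538). Capn1, the calcium-dependent protease calpain 1, had a median of 82.1 CPM in fed and 129 CPM in ADF muscle without overlap, and changed by 0.68 in both vectors. Slc8a3, a sodium-calcium exchanger of muscle (1.54-fold), Uap1, which makes UDP-N-acetylglucosamine (1.68-fold), Rpap3, a cofactor of chaperones (1.98-fold), Agap3 (1.97-fold) and Fam168a (1.73-fold) rose in the same way. Kpna3, an importin (1.6-fold), the kinase Map2k1 (1.51-fold) and Letm1, an ion exchanger of the mitochondrial inner membrane (1.44-fold), rose too, but missed the threshold with scaling to totals (adjusted p = 0.0932, 0.0943 and 0.0709).

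Among the modest falls, Rbfox1, a splicing factor of muscle and neurons, was the smallest in size. It lay between 184 and 244 CPM (median 205) in fed and 129 and 167 CPM (median 148) in ADF muscle, a 1.39-fold fall (-0.48, SE 0.13, adjusted p = 0.00942). Nisch, a partner of integrins, fell 1.48-fold, Med12 of the mediator complex 1.81-fold, Psmb3 of the proteasome core 1.5-fold and the ribosomal proteins Rpl13 and Rpl34 1.5-fold and 1.53-fold. Myh11, the smooth muscle myosin, fell 1.9-fold, Arhgef2, a guanine nucleotide exchange factor, 1.69-fold, Usp40, of the deubiquitinase family, 1.74-fold and Edc4, a scaffold of mRNA decapping, 1.67-fold. In all 20 the changes in the 2 vectors lay within 1 SE of each other, a closeness that the rule itself favours.

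**Figure D5:**
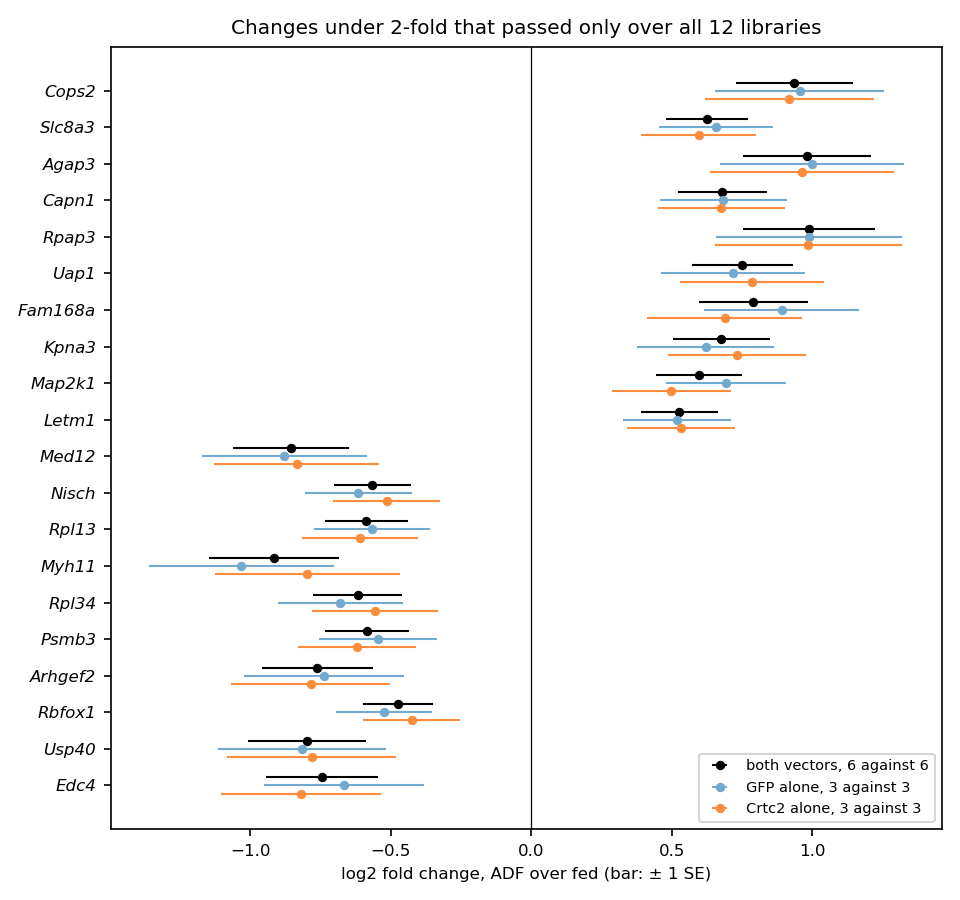
Log2 fold change of ADF over fed (horizontal axis, bars ± 1 SE) of the 20 genes with modest changes, over both vectors (black), in GFP muscle (blue) and in Crtc2 muscle (orange). The 3 estimates of a gene lie close together and the pooled bar is the shortest, from Letm1 at 0.53 to Rpap3 at 0.99 among rises.

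The pooled value assumes the same response with both vectors. The difference of the ADF response between Crtc2 and GFP muscle passed for 0 of 16007 genes, or 0%, in edgeR's quasi-likelihood test (smallest adjusted p = 0.174), while 1240 genes had an unadjusted p under 0.05 and DESeq2 called 132. Among the 2729 genes with a pooled change, 258, or 9.45%, had an unadjusted p under 0.05 for the difference. The 5 with the smallest p were Irs2, Tubb5, Oas2, 2310002L09Rik and Actg1. Tubb5, a tubulin, lay at 82.3 to 98.9 CPM in ADF GFP and 67.8 to 112 CPM in fed GFP libraries, and at 31.8 to 40.9 CPM in ADF Crtc2 against 99.5 to 110 CPM in fed Crtc2 libraries. Its pooled fall (-0.80, adjusted p = 0.0155) therefore averaged -0.06 with GFP and -1.54 with Crtc2, and missed the threshold without ADF Crtc2 replicate 2 (0.0632) or ADF Crtc2 replicate 3 (0.0603), or without the vector term (0.0813). Actg1, cytoplasmic actin, fell 2.52-fold on average, by 0.69 in GFP and 2.23 in Crtc2 muscle. The uncharacterised 2310002L09Rik changed by 0.07 and 1.31, and its pooled rise (0.69, adjusted p = 0.0151) was lost without ADF Crtc2 replicate 1 (0.0583), Fed Crtc2 replicate 1 (0.0533) or Fed Crtc2 replicate 3 (0.058), or with scaling to totals (0.0731). All 5 were among the genes whose difference DESeq2 called (adjusted p from 0.000276 for Irs2 to 0.015 for Actg1), while none passed in edgeR's quasi-likelihood test (0.174 for Irs2 to 0.315 for Actg1). For Tubb5, Actg1 and 2310002L09Rik the pooled value lies between 2 unlike estimates.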

How the data were processed

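Gene counts of 12 bulk RNA-seq libraries were used as the authors deposited them, whole-number counts per gene in 1 table with 0 columns of no sample. Per the submitters' processing notes the tools were HISAT2 2.0.5, SAMtools 1.7, featureCounts (Subread 1.6.1) and DESeq2 1.18.1, on GRCm38 (mm10); the annotation release and the strand setting are not given in the sources used here. Of 22607 genes, 22582 (99.9%) were found by identifier in GENCODE M21, which gave coordinates and exon overlaps; 66 of the 200 named genes share exon bases with another model.

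Genes kept by filterByExpr were scaled by the trimmed mean of M values and tested with edgeR's quasi-likelihood test, diet plus vector, with Benjamini-Hochberg adjustment over all genes at 0.05 (R 4.3.3, edgeR 4.0.16, limma 3.58.1, DESeq2 1.42.0, Python 3.11.15, pandas 2.3.3, matplotlib 3.10.9). A fit of 4 group means gave each vector's response and their difference. Depth bounds precision for genes of few reads. Library and marker sums were compared by exact permutation of diet within vector.

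Members, lists and rules were chosen with earlier results of these data known. Named were the 12 largest rises and falls (mean at least 5 CPM, no overlap), 10 modest rises and falls, the 5 most abundant rises and falls, up to 4 genes per list with the smallest p, a set list, and 5 genes with the smallest p for the difference between vectors. Some genes that the rule names are not reported here. The fit was tested on simulated data. Alternatives were other scalings, filters and models, a replicate block and leaving out each library; a fit without the ribosomal RNA-like genes was chosen after seeing the data.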

Additional observations from a re-analysis of the deposited data

Results flagged for a closer look

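In 28 of 412 sets of 6 libraries of a diet, 1 library stood apart from the other 5 by Dixon's criterion for 6 values, taken on log2 CPM. Chance gives about 1 in 20 such sets. Most of the 412 sets, and all 28 that were flagged, were those of a named gene. Values are CPM.

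Among ADF libraries, Crtc2 replicate 1 was highest for Fbxo32 (1300, others 623 to 820), Hipk2 (116, others 48.7 to 66.7), Gabarapl1 (130, others 64.1 to 78.2), Rora (109, others 74.5 to 84.2) and Insr (113, others 73.1 to 83). ADF Crtc2 replicate 3 was lowest for Mtx3 (0, others 1.86 to 9.16), Tnnc1 (0.498, others 3.79 to 10.2) and Nr4a1 (117, others 148 to 162), and highest for Nadk2 (57.6, others 36.7 to 42.6). ADF Crtc2 replicate 2 was lowest for Arhgef2 (18.1, others 33.3 to 36.3). ADF GFP replicate 3 was lowest for Ogdh (1170, others 1580 to 1750), Atp5a1 (2940, others 3920 to 4560) and Slc25a12 (537, others 715 to 762). ADF GFP replicate 1 was lowest for Ston2 (29.8, others 44.6 to 51.7) and Kpna3 (83.6, others 108 to 121) and highest for Bag3 (277, others 202 to 226). ADF GFP replicate 2 was lowest for Mir6236 (116, others 229 to 308) and Tbc1d1 (156, others 231 to 287).

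Among fed libraries, GFP replicate 1 was lowest for Hipk2 (0, others 3.31 to 9.69), Angptl4 (0, others 2.41 to 13.4) and Mfn2 (281, others 388 to 468). Fed GFP replicate 2 was lowest for Spaca6 (3.37, others 12.4 to 26.7) and Tubb5 (67.8, others 94.6 to 113), and Fed GFP replicate 3 for Scn4a (99.1, others 148 to 175). Fed Crtc2 replicate 1 was lowest for Foxo1 (6.33, others 12.8 to 17.5) and Igf1 (1.56, others 10.5 to 29.4). Fed Crtc2 replicate 3 was lowest for Casq2 (44, others 110 to 135) and highest for Txnrd1 (59, others 37.6 to 42.8).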

How the results depend on the processing

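Across the alternatives to the pooled fit, the number of genes past the threshold stayed within 1.5 times of 2729, from 2251 without ADF GFP replicate 1 to 3360 with DESeq2, and leaving out 1 library at a time gave 2251 to 2798 (1158 to 1425 higher, 1031 to 1373 lower). Scaled to library totals, 932 genes were higher in place of 1453; the share of higher genes was 33.9% there, 46.2% with DESeq2 and 46.6% among genes of at least 10 CPM. In GFP muscle alone 671 to 1246 genes passed with 1 library left out, and 714, 671 and 733 without ADF GFP replicate 1, 2 and 3. In Crtc2 muscle the range was 1103 to 1477, with 1103 without ADF Crtc2 replicate 1. For the difference between vectors DESeq2 called 132 genes, and 3 passed without Fed GFP replicate 2 (range 0 to 3). The cause was not tested. Of the 182 named genes that passed, 159 passed in every alternative run, 15 were lost in at least 1 fit that left out a library, 12 with scaling to totals and 0 with DESeq2, and none reversed. Among named genes that did not pass, some changed sign. With 1 library left out at a time Sik1 ran from -0.00077 to 0.39, Igf1 from -0.97 to 0.060, Myh7 from -0.93 to 0.24, Myh1 from -0.057 to 0.29 and Myh4 from -0.26 to 0.12. Scaled to totals, Sik1 was at -0.048 and Myh1 at -0.12, and Myh1 was at -0.0085 among genes of at least 10 CPM.

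Same-numbered libraries share a number and no stated origin, and their deviations correlated between -0.04 and 0.04. With the replicate number as a block 2565 genes passed over both vectors (1417 higher, 1148 lower), 1088 in GFP and 1664 in Crtc2 muscle, and 0 for the difference between vectors.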
